A study of Mus musculus with 21 samples.

Results

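The genes described here are 10 members of the Nrf2 antioxidant programme, Nfe2l2, Nqo1, Gclc, Gclm, Hmox1, Txnrd1, Srxn1, Slc7a11, Gsta4 and Gsto1. They were taken by gene name from the deposited count table, where all 10 were found among 23713 genes. RNA was measured by bulk sequencing of keratinocytes freed from mouse tail skin, in 3 models of basal cell carcinoma (BCC), a skin tumour driven by Hedgehog signalling. Each model had 4 tumour libraries (BCC) and 3 libraries of tumour-free control mice (Con). SmoM2 mice, named for an activated form of the Hedgehog receptor protein Smoothened, were sampled 29 days after tumour induction. Gnas-eKO mice, named for a knockout of the stimulatory G protein alpha subunit, were sampled at 42 days, and PKI mice, named for an inhibitor of protein kinase A, at 57 days. The promoter or Cre line behind each model, the genotype of the controls and the age of the mice are not given in the sources used here. The labels put the 3 models in separate batches (A, B and C), so model, day and batch cannot be told apart between models.

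Nfe2l2 encodes Nrf2, a transcription factor that cells hold at a low protein level through Keap1, an adaptor that brings Nrf2 to a Cul3 ubiquitin ligase. Oxidants and electrophiles modify Keap1, Nrf2 then builds up, pairs with a small Maf protein and binds antioxidant response elements at its target genes, where Bach1 can compete with it. The targets make glutathione, reduce thioredoxin and detoxify quinones and electrophiles. In the epidermis the pathway is known for protecting keratinocytes from ultraviolet light and reactive chemicals. Since Nrf2 is controlled largely through its protein, the mRNA of Nfe2l2 does not report its activity.

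The antioxidant response element core was looked for near the start of the members, and the matches are shown because this is the sequence through which Nrf2 is known to act. RefSeq windows of 300 bases (GRCm38.p6, 250 before and 50 after a start) were at hand for 7 of the 10 members, 9 windows in all, and the motif searched was TGACNNNGC on both strands. It was found in 4 of the 9 windows, and 12.4% of all 32851 windows hold it. Counted by gene, it was found in 4 of these 7 members, and 14% of all 27025 genes hold it. Capitals mark the motif, and each sequence is written 5′ to 3′ on the minus strand of the chromosome.
Nfe2l2, chr2:75704885-75704913: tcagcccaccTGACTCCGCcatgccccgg
Gclm, chr3:122245413-122245441: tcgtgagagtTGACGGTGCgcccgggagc
Txnrd1, chr10:82859104-82859132: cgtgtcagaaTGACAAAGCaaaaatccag
Srxn1, chr2:152105542-152105570: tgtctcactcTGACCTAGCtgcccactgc
Counted along each gene from its start, the motif covers positions −240 to −232 in Nfe2l2, −134 to −126 in Gclm, −92 to −84 in the second of 3 annotated Txnrd1 windows and 29 to 37 in Srxn1. Nfe2l2 is itself on the minus strand, so its motif is printed as transcribed, while Gclm, Txnrd1 and Srxn1 are on the plus strand and their printed motifs run against the direction of the gene. The windows of Nqo1, Slc7a11 and Gsto1 do not hold these letters. Sequence outside the windows was not searched, so elements may lie there, and whether Nrf2 binds the matches was not tested. Windows for Gclc, Hmox1 and Gsta4 were not used here.

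Library totals ranged from 16645858 to 22251132 counts, and the lowest estimated count of any member in any library was 75, for Gsta4. The labels were checked on Gnas and Smo, and no altered gene was checked for PKI. Gnas was at 51.4 to 117 CPM (counts scaled by library size) in Gnas-eKO BCC against 171 to 177 in its Con (edgeR adjusted p 0.0647, not past the threshold), and Smo was at 287 to 317 CPM in SmoM2 BCC against 94.3 to 111 in its Con. The keratinocyte markers Krt5 and Krt14 were abundant in all groups, with group means of at least 10478 and 5756 CPM. Libraries of a group correlated with Pearson's r of at least 0.971, except in Gnas-eKO BCC, where r went down to 0.942. Gli1, the Hedgehog target gene, was at 65.8 to 102 CPM in PKI BCC against 9.32 to 13.8 CPM in PKI Con. It was at 9.66 to 283 CPM in Gnas-eKO BCC and at 4.75 to 9.92 CPM in Gnas-eKO Con. The lowest of these BCC libraries, the one labelled Gnas-eKO BCC replicate 2, lay within the control range for Gli1, so the Gnas-eKO values of the members are given below also without it. Every group held libraries with Xist reads and libraries with Y-linked reads, in unequal numbers between Con and BCC.

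In control epidermis the members spanned a wide range of levels. Per kilobase of merged exon (GENCODE M21), Gsto1, a glutathione transferase of the omega class, was at 99.7 ± 20.1 CPM per kb over the 9 Con libraries (SD). Nfe2l2 itself followed with 24 ± 2.92, then Gclc with 16.3 ± 2.75 and Srxn1 with 16.2 ± 1.73. Gsta4 (10.9 ± 6.86) and Gclm (10.9 ± 0.582) lay next, and Nqo1 (7.79 ± 2.03) and Hmox1 (7.18 ± 1.51) below them. Txnrd1 was at 3.95 ± 0.853 and Slc7a11 lowest of the 10 at 0.949 ± 0.337 CPM per kb. Only the 2 ends of this order stood clear. The lowest Gsto1 library (67.9) exceeded the highest of Nfe2l2 (28.5), and the highest Slc7a11 library (1.32) lay below the lowest of Txnrd1 (2.92), while each other pair of neighbours overlapped. Between the 3 sets of controls, Slc7a11 varied most of the 10, 2.13-fold between the highest and lowest group mean, and Nfe2l2 least, 1.06-fold. These control groups differ in batch and day at once and were not tested.

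**Figure D1:**
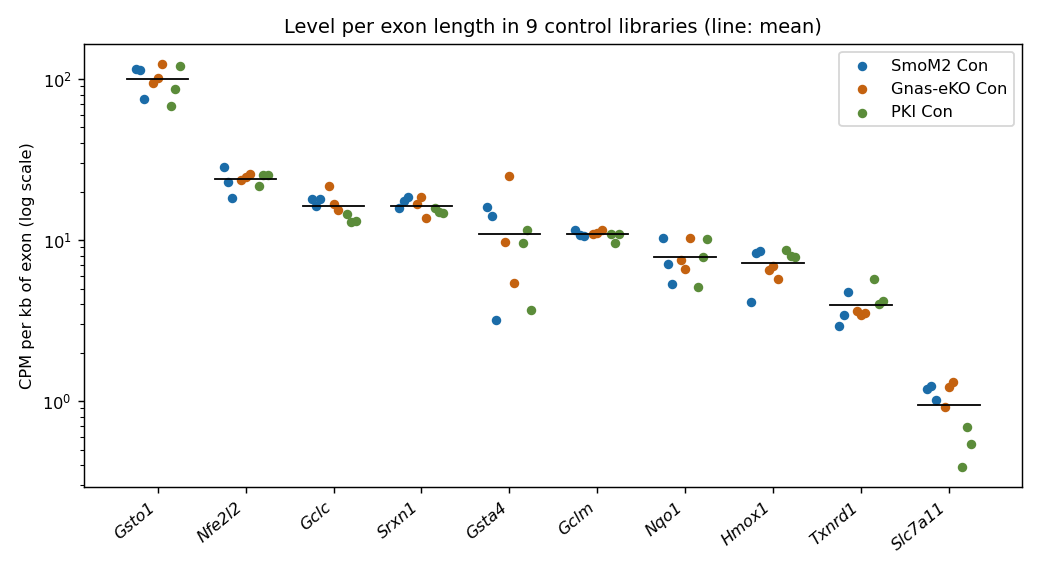
Level of the 10 genes in the 9 control libraries, in CPM per kb of merged exon on a log scale, with points for libraries, colours for the model and a line for the mean. Gsto1 stands above the others and Slc7a11 below them, and the 3 PKI Con libraries have the lowest Slc7a11 levels.

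The comparison of BCC with Con within each model asks whether the programme moves in tumours. In PKI, 4 of the 10 members were called higher (edgeR quasi-likelihood test, Benjamini-Hochberg adjusted p under 0.05) and none lower, where 34.5% of all genes tested were called, 18.7% higher and 15.8% lower. The 4 became 3 in the joint fit of all 21 libraries or without PKI Con replicate 2, beside 15.2% and 13.2% of genes higher. They became 5 with the fit blocked on replicate number or with sex as a covariate, beside 19% and 20.2%. Without PKI Con replicate 3 they became 6, beside 13.9%. In SmoM2, 1 member was called higher and 2 lower, against 29.7% of all genes, 16.2% higher and 13.5% lower. The 2 lower became 5 without SmoM2 Con replicate 3, with Nfe2l2, Slc7a11 and Gsta4 added, where 10.9% of all genes were called lower. They became 1 without Con replicate 2, BCC replicate 1 or BCC replicate 2 of SmoM2, where 9.24%, 10.5% and 10.6% of all genes were. In Gnas-eKO none was called, against 1.63% of genes, 1.46% higher and 0.165% lower. At an unadjusted p under 0.05 there were 5 members in PKI, all higher, beside 23.7% of genes higher and 21% lower. In SmoM2 there were 1 higher and 3 lower at that p, beside 21.2% and 19.1%, and in Gnas-eKO 1 higher and 4 lower, beside 12.2% and 7.34%. The log2 fold change was positive for 9 of the 10 members in PKI, 2 in SmoM2 and 4 in Gnas-eKO. Among these, Gclc in SmoM2 (0.0047) and Gclm in Gnas-eKO (0.0092) lay next to 0 and changed sign in some alternative fits. In Gnas-eKO the DESeq2 Wald test called 1 member higher and 2 lower, beside 6.78% and 2.57% of all genes. Without the library labelled Gnas-eKO BCC replicate 2, edgeR called 1 member higher and 2 lower there, beside 7.36% and 4.43% of all genes. The other 7 members did not pass without it, with log2 fold changes of −0.13 for Nfe2l2, 0.56 for Nqo1, 0.093 for Gclc, 0.048 for Gclm, −0.11 for Hmox1, −1.61 for Gsta4 and −0.67 for Gsto1 (edgeR adjusted p 0.0915 to 0.823). The median log2 fold change of the 10 members was 0.38 in PKI, −0.37 in SmoM2 and −0.11 in Gnas-eKO, beside medians over all genes of −0.0012, 0.00054 and 0.020. In SmoM2 the animal names in the file headers carry another prefix in BCC than in Con, so the tumour and what that prefix stands for cannot be told apart there. In bulk RNA, fewer cells of a type and less RNA per cell cannot be told apart either.

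**Figure D2:**
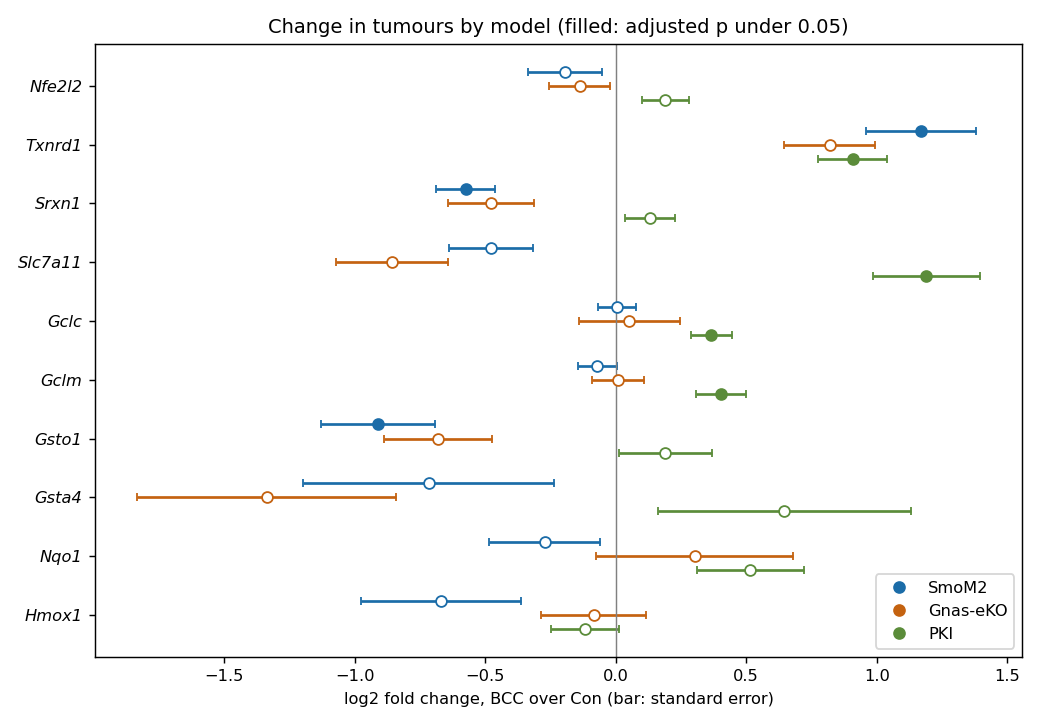
Log2 fold change of each gene, BCC over Con, with its standard error, for SmoM2, Gnas-eKO and PKI. Filled points have an adjusted p under 0.05. Txnrd1 lies to the right in all 3 models, and Slc7a11 lies at 1.19 in PKI and below 0 in the other models.

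Nfe2l2 (ENSMUSG00000015839.6, GRCm38 chromosome 2, 75675513 to 75704641, minus strand) changed little in any model. In SmoM2 it was at 109, 87.7 and 69.5 CPM in Con and at 77.6, 68.1, 78.6 and 85.4 CPM in BCC. In Gnas-eKO the Con libraries had 89.6 to 96.9 CPM and the BCC libraries 73.3 to 96.3 CPM, and in PKI the values were 79.5 to 95.3 and 98.2 to 113 CPM. The groups overlapped in SmoM2 and Gnas-eKO, and in PKI the 4 BCC libraries lay just above the 3 Con libraries. Its log2 fold changes were −0.20 (SE 0.14), −0.14 (SE 0.12) and 0.19 (SE 0.090), with edgeR adjusted p of 0.344, 0.565 and 0.132. Without SmoM2 Con replicate 3, the lowest of its controls, the SmoM2 value was −0.35 and passed (edgeR adjusted p 0.0461, range 0.0461 to 0.911 with each library left out in turn).

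Txnrd1 (ENSMUSG00000020250.10, chromosome 10, 82833951 to 82897712, plus strand) encodes cytosolic thioredoxin reductase, the selenoenzyme that keeps thioredoxin reduced with NADPH. It was the one member whose tumour libraries lay above their controls in all 3 models. In SmoM2 it was at 20.8, 24.4 and 33.9 CPM in Con and at 46.1, 58, 75.5 and 57.6 CPM in BCC. In Gnas-eKO the Con libraries had 25.8, 24.1 and 24.8 CPM and the BCC libraries 55.5, 33, 40.5 and 46.6 CPM. In PKI the values were 39.6, 28 and 29.4 CPM in Con and 64.1, 53.4, 64.6 and 60.6 CPM in BCC. No tumour library fell within the range of its controls, and the lowest, the library labelled Gnas-eKO BCC replicate 2, was still 33 CPM beside a highest Con value of 25.8. It rose 2.25-fold in SmoM2 (log2 fold change 1.17, SE 0.21, edgeR adjusted p 0.00445) and 1.88-fold in PKI (0.91, SE 0.13, edgeR adjusted p 0.00117), and each call held in every alternative run. In Gnas-eKO the log2 fold change was 0.82 (SE 0.18), with an edgeR adjusted p of 0.0586 that did not pass. Without Gnas-eKO BCC replicate 2 it was 0.94 and passed (edgeR adjusted p 0.00655, range 0.00655 to 0.245 with each library left out in turn), and it also passed in the joint fit of all 21 libraries and with the DESeq2 Wald test. No difference of its effect between models passed. That between PKI and SmoM2 was −0.26 (SE 0.26, edgeR adjusted p 0.497), that between PKI and Gnas-eKO 0.091 (SE 0.22, adjusted p 0.84) and that between Gnas-eKO and SmoM2 −0.35 (SE 0.28, adjusted p 0.755). Eid3, Gm38560 and Gm47073 overlap the Txnrd1 interval and share no annotated exonic base with it.

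Srxn1 (ENSMUSG00000032802.8, chromosome 2, 152105516 to 152111376, plus strand) encodes sulfiredoxin, which reactivates over-oxidised peroxiredoxins. It went the other way from Txnrd1 in SmoM2. There it was at 44.5, 49.7 and 52.9 CPM in Con and at 35.1, 30.2, 38 and 28.3 CPM in BCC. All 4 tumour libraries were below all 3 controls, and Srxn1 fell by 0.57 on the log2 scale (SE 0.11, edgeR adjusted p 0.00425), a call that held in every alternative. In Gnas-eKO the Con libraries had 46.9, 52.3 and 38.2 CPM and the BCC libraries 29.9, 41.3, 28.9 and 31.7 CPM. One BCC library, replicate 2, lay inside the control range, and the log2 fold change of −0.48 (edgeR adjusted p 0.166, SE 0.17) did not pass. Without that library it was −0.60 and passed (edgeR adjusted p 0.0351, range 0.0351 to 0.49 with each library left out in turn). Of the settings that used every library, it passed in the joint fit only (−0.49, edgeR adjusted p 0.0189). In PKI the groups overlapped, with 41.1 to 43.5 CPM in Con and 41.1 to 52.2 CPM in BCC and a log2 change of 0.13 (edgeR adjusted p 0.327, SE 0.096). The difference between the PKI and SmoM2 effects, 0.70 on the log2 scale, passed (SE 0.15, edgeR adjusted p 0.00448), and that between PKI and Gnas-eKO, 0.61, did not (SE 0.20, adjusted p 0.0732). The latter passed with the DESeq2 Wald test and in the joint fit (adjusted p 0.039 and 0.0418, range 0.039 to 0.0806 across the settings that used every library). It also passed without Gnas-eKO BCC replicate 2 or Gnas-eKO Con replicate 3 (0.74 and 0.73, edgeR adjusted p 0.0158 and 0.0464, range 0.0158 to 0.189 with each library left out in turn).

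Slc7a11 (ENSMUSG00000027737.10, chromosome 3, 49892526 to 50443614, minus strand) encodes xCT, the cystine importer that supplies cysteine for glutathione. It differed between models more than any other member with a called difference. In PKI it was at 5.28, 9.51 and 7.43 CPM in Con and at 13.6, 18.2, 19.2 and 16.3 CPM in BCC. In Gnas-eKO the order was turned around, with 12.8, 17.1 and 18.3 CPM in Con and 6.87, 11, 9.79 and 7.76 CPM in BCC. In SmoM2 the Con libraries had 16.6, 17.5 and 14.3 CPM and the BCC libraries 10.7, 8.98, 14.3 and 12.5 CPM. Con and BCC did not overlap in any model, with BCC above in PKI and below in SmoM2 and Gnas-eKO. In SmoM2 the gap was narrow, since the highest BCC library had 14.25 CPM and the lowest Con library 14.33 CPM. The PKI controls were the low ones among the 9 controls, and the PKI tumours were at the level of the other models' controls. Slc7a11 rose 2.28-fold in PKI (log2 fold change 1.19, SE 0.21, edgeR adjusted p 0.00253), a call that held in every alternative. In SmoM2 its log2 fold change was −0.48 (SE 0.16), with an edgeR adjusted p of 0.0505 next to the threshold. Across the 7 settings that used every library that p ran from 0.0232, with sex as a covariate, to 0.123. It passed in 3 of the 7, and also without SmoM2 Con replicate 3 or SmoM2 BCC replicate 3. In Gnas-eKO the log2 fold change was −0.86 (edgeR adjusted p 0.0848, SE 0.21). It passed without Gnas-eKO BCC replicate 2, at −0.98 (edgeR adjusted p 0.025, range 0.025 to 0.301 with each library left out in turn). It also passed with the DESeq2 Wald test and in the joint fit (adjusted p 0.00678 and 0.00769, range 0.00678 to 0.143 across the settings that used every library). The effect in PKI exceeded that in SmoM2 by 1.67 (SE 0.27, edgeR adjusted p 0.000685) and that in Gnas-eKO by 2.05 (SE 0.31, edgeR adjusted p 0.00263), each in every alternative run. The effects in Gnas-eKO and SmoM2 differed by −0.38 (SE 0.28, adjusted p 0.737), which did not pass.

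Markers of other cell types differed between BCC and Con as well, in PKI and in the other models. The summed level of 7 macrophage markers was 28.6 to 57.3 CPM in PKI BCC and 4.75 to 12 CPM in PKI Con, and 6 of the 7 were called higher. None of the 7 was at 0 throughout a group. In SmoM2 the macrophage sum was 10.6 to 16.3 CPM in BCC and 9.59 to 9.87 CPM in Con, with 1 of 3 tested called higher, and in Gnas-eKO 13 to 29.7 and 10.9 to 12.6 CPM, with 0 of 3. In PKI the summed level of 5 melanocyte markers went down, from 149 to 199 CPM in Con to 71.9 to 116 CPM in BCC. There 4 of 5 were called lower, and none was at 0 in any library. In SmoM2 2 of these 5 were called lower, with sums of 116 to 205 CPM in Con and 111 to 161 CPM in BCC. In Gnas-eKO 0 of 5 were called, with sums of 112 to 171 CPM in Con and 119 to 196 CPM in BCC. In PKI, 3 of the 4 neutrophil markers found were called higher, with sums of 901 to 3540 CPM in BCC and 2.26 to 11.7 CPM in Con. Csf3r was at 0 in PKI Con. In SmoM2 2 of 3 tested were called higher, with sums of 389 to 1029 CPM in BCC and 14.1 to 101 CPM in Con, and in Gnas-eKO 0 of 3, with 54.5 to 2005 and 14.6 to 74.3 CPM. In each model the BCC sum is mostly of S100a8 and S100a9, which stressed keratinocytes also make. Mean Cxcr2 was 2.19 CPM in Con and 8.21 CPM in BCC of PKI, 2.83 and 1.96 CPM in SmoM2 and 2.77 and 1.88 CPM in Gnas-eKO. Mean Csf3r was higher in BCC of each model, at 0.479 CPM or less. The 4 T cell markers summed to 8.52 to 16.4 CPM in PKI BCC and 4.46 to 8.79 CPM in Con, with 3 of 4 called higher and none at 0 throughout a group. The T cell sum was 2.82 to 3.63 CPM in SmoM2 BCC against 1.25 to 2.31 CPM in Con, with 1 of 3 tested called higher, and 2.63 to 8.93 against 2.46 to 3.36 CPM in Gnas-eKO, with 0 of 3. The sum of 6 fibroblast markers was higher in BCC of each model, at 393 to 534 CPM in SmoM2 BCC against 17.3 to 40.1 in Con, at 94.7 to 580 against 15.9 to 27.3 in Gnas-eKO and at 84.1 to 144 against 15.5 to 42.4 in PKI, with 2, 1 and 3 of 6 called higher and none at 0 throughout a group. Dcn made up most of these sums, with a mean of 447 CPM in SmoM2 BCC. In SmoM2, Col3a1 had means of 2.72 CPM in Con and 2.57 CPM in BCC, and Col1a2 of 1.97 and 15 CPM. There Lum had means of 0.202 and 0.901 CPM, Col1a1 of 1.57 and 2.00 CPM and Pdgfra of 0.409 and 0.675 CPM. The means of Col3a1 were 2.16 and 13.1 CPM in Gnas-eKO and 2.40 and 7.45 CPM in PKI. Of 6 keratinocyte markers, whose sum was 32944 to 48295 CPM in SmoM2 BCC against 48591 to 65218 CPM in its Con, 1 was called higher and 3 lower in SmoM2, and none was at 0. Their sum was 24184 to 43416 CPM in Gnas-eKO BCC against 49909 to 60601 CPM in Con, with 0 of 6 called, and 40497 to 67890 against 43083 to 60453 CPM in PKI, with 1 higher and 1 lower. Langerhans cell markers summed to 278 to 589 CPM in PKI BCC against 34.2 to 121 CPM in Con, with 3 of 3 called higher and none at 0. In PKI BCC, Cd74 and H2-Ab1 had means of 247 and 124 CPM and Cd207 of 15.7 CPM. The sum was 56.9 to 121 CPM in SmoM2 BCC against 74.9 to 102 CPM in Con, with 0 of 3 called. In Gnas-eKO it was 106 to 316 against 85.2 to 127 CPM, also with 0 of 3. No endothelial or erythroid marker was called in any model. The part of these cell types in the changes of the members was not tested.

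The 2 subunits of glutamate-cysteine ligase, the rate-limiting enzyme of glutathione synthesis, both rose in PKI tumours. Gclc (ENSMUSG00000032350.9, chromosome 9, 77754535 to 77794485, plus strand) is the catalytic subunit and Gclm (ENSMUSG00000028124.15, chromosome 3, 122245557 to 122270732, plus strand) the modifier. In PKI, Gclc was at 53.6, 47.7 and 49.1 CPM in Con and at 67.6, 61.9, 62.3 and 66.6 CPM in BCC. Gclm was at 66.4, 59.5 and 68.2 CPM in Con and at 92.4, 92.9, 75.9 and 81 CPM in BCC. For both genes all 4 tumour libraries lay above the controls, and the rises were small, 1.29-fold for Gclc (log2 fold change 0.37, SE 0.078, edgeR adjusted p 0.00644) and 1.32-fold for Gclm (0.40, SE 0.096, edgeR adjusted p 0.0109). In the joint fit of all 21 libraries Gclc did not pass (0.35, edgeR adjusted p 0.0541, range 0.000491 to 0.0541 across the settings that used every library). Gclm did not pass without PKI Con replicate 2 (0.34, edgeR adjusted p 0.0525, range 0.00719 to 0.0525 with each library left out in turn). In SmoM2 and Gnas-eKO the groups overlapped for both genes. The log2 fold changes of Gclc were 0.0047 (SE 0.074) and 0.052 (SE 0.19), and those of Gclm −0.071 (SE 0.074) and 0.0092 (SE 0.10), with edgeR adjusted p of at least 0.519. The PKI effect exceeded the SmoM2 effect by 0.36 for Gclc (SE 0.10, edgeR adjusted p 0.0205) and by 0.47 for Gclm (SE 0.12, adjusted p 0.0106). For Gclc this difference did not pass in the joint fit (edgeR adjusted p 0.201) or with the fit blocked on replicate number (0.31, edgeR adjusted p 0.0783). It also did not pass without PKI Con replicate 2 or 3 (edgeR adjusted p 0.0547 and 0.051, at the upper end of 0.0159 to 0.0547). Gm17494 on the other strand and Gm6061 on the same strand share 296 and 244 exonic bases with Gclm, so its count is uncertain to that extent.

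Among the detoxifying transferases, Gsto1 (ENSMUSG00000025068.8, chromosome 19, 47854970 to 47864790, plus strand) was lower in SmoM2 tumours. It was at 233, 231 and 154 CPM in SmoM2 Con and at 98.1, 102, 88.6 and 149.5 CPM in BCC. Each tumour library lay below each control, although BCC replicate 4 and Con replicate 3 were close, and Gsto1 fell by 0.91 on the log2 scale (SE 0.22, edgeR adjusted p 0.0188). That call was lost when Con replicate 1, Con replicate 2, BCC replicate 1 or BCC replicate 2 was left out (log2 fold change −0.82, −0.82, −0.86 and −0.88, within an edgeR adjusted p range of 0.00315 to 0.0706) and without a filter on low counts (adjusted p 0.0517, range 2.43e-05 to 0.0517 across the settings that used every library). In Gnas-eKO it was at 190 to 249 CPM in Con and 95 to 180 CPM in BCC, without overlap, and the log2 fold change of −0.68 (edgeR adjusted p 0.128, SE 0.21) did not pass. Without Gnas-eKO BCC replicate 3 it passed (−0.85, edgeR adjusted p 0.0483, range 0.0483 to 0.327 with each library left out in turn). It also passed with the DESeq2 Wald test and in the joint fit (adjusted p 0.0313 and 0.0389, range 0.0313 to 0.141 across the settings that used every library). In PKI the values overlapped, with 134 to 242 CPM in Con and 192 to 231 CPM in BCC, a log2 change of 0.19 (edgeR adjusted p 0.447, SE 0.18). Without PKI Con replicate 3, the highest of its controls, it was 0.44 and passed (edgeR adjusted p 0.035, range 0.035 to 0.978 with each library left out in turn). The difference between the PKI and SmoM2 effects was 1.10 (SE 0.30, edgeR adjusted p 0.0194). It did not pass without SmoM2 Con replicate 2 (1.01, edgeR adjusted p 0.0555, range 0.00535 to 0.0555 with each library left out in turn). Cfap43 overlaps Gsto1 on the other strand and shares no annotated exonic base with it.

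Gsta4 (ENSMUSG00000032348.6, chromosome 9, 78182774 to 78209349, plus strand), the glutathione transferase that handles the lipid peroxidation product 4-hydroxynonenal, had the largest spread among controls for its level, with an SD of 6.86 on a mean of 10.9 CPM per kb. It was at 20.3, 17.9 and 4.09 CPM in SmoM2 Con, at 12.4, 31.5 and 6.82 CPM in Gnas-eKO Con and at 11.8, 14.4 and 4.57 CPM in PKI Con. The tumour libraries had 7.63 to 9.59 CPM in SmoM2, 4.21 to 10.1 CPM in Gnas-eKO and 9.32 to 25.8 CPM in PKI. The groups overlapped in each model. The log2 fold changes of −0.72 (SE 0.48), −1.34 (SE 0.50) and 0.65 (SE 0.49) did not pass (edgeR adjusted p 0.317, 0.19 and 0.347). In SmoM2 the lack of a call rested on Con replicate 3, the lowest of its controls. Without that library the log2 fold change was −1.16 (edgeR adjusted p 0.000524, range 0.000524 to 0.682 with each library left out in turn). The Gnas-eKO value without Con replicate 2, the highest of its controls, was −0.52 (edgeR adjusted p 0.647, leave-one-out range of the log2 fold change −1.72 to −0.52). In PKI, Gsta4 passed once the fit was blocked on replicate number, at 0.83 (edgeR adjusted p 0.00739, range 0.00739 to 0.489 across the settings that used every library).

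Nqo1 (ENSMUSG00000003849.8, chromosome 8, 107388225 to 107403206, minus strand) encodes the quinone reductase most often used as a readout of Nrf2. It was not called in any model. In PKI it was at 7.75, 12 and 15.5 CPM in Con and at 15.8, 15.7, 17.2 and 18.3 CPM in BCC. All 4 tumour libraries lay above the controls by a narrow margin, and the log2 fold change of 0.52 (edgeR adjusted p 0.0808, SE 0.21) passed with sex as a covariate (0.61, edgeR adjusted p 0.0122, range 0.0122 to 0.24 across the settings that used every library) and without PKI Con replicate 3 (0.76, edgeR adjusted p 0.0229). In SmoM2 the values were 8.39 to 16 CPM in Con and 8.18 to 11.3 CPM in BCC, and in Gnas-eKO 10.2 to 15.9 CPM and 6.55 to 23.7 CPM. Both overlapped, with log2 fold changes of −0.27 (SE 0.21, edgeR adjusted p 0.382) and 0.30 (SE 0.38, edgeR adjusted p 0.715). Without SmoM2 Con replicate 1 the SmoM2 value was 0.012, so its direction rested on that library. Over the 21 libraries, and measured as Euclidean distance between mean-centred log2 CPM profiles, the genes most like Nqo1 among 15640 were Chchd4, Mrps6, Gm27219, Dynlt1f and Mtap, at distances of 1.20 to 1.37. Of the other 9 members Nfe2l2 was nearest to it, at 1.78 and in place 412, where the libraries share batch and depth.

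Hmox1 (ENSMUSG00000005413.8, chromosome 8, 75093621 to 75100589, plus strand), the haem-degrading oxygenase, was not called in any model either. In SmoM2 it was at 7.29, 14.6 and 15 CPM in Con and at 7.95, 4.61, 9.22 and 9.07 CPM in BCC. Con replicate 1 lay among the tumour values, and the log2 fold change was −0.67 (edgeR adjusted p 0.14, SE 0.31). Without that library it was −0.94 and passed (edgeR adjusted p 0.0213, range 0.0213 to 0.346 with each library left out in turn), as it did in the joint fit of all 21 libraries (−0.69, edgeR adjusted p 0.0423). In Gnas-eKO and PKI the values overlapped, at 9.97 to 12.1 against 8.19 to 13.3 CPM and at 13.5 to 14.9 against 10.7 to 14.6 CPM, with log2 fold changes of −0.084 (SE 0.20, edgeR adjusted p 0.857) and −0.12 (SE 0.13, edgeR adjusted p 0.518).

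**Figure D3:**
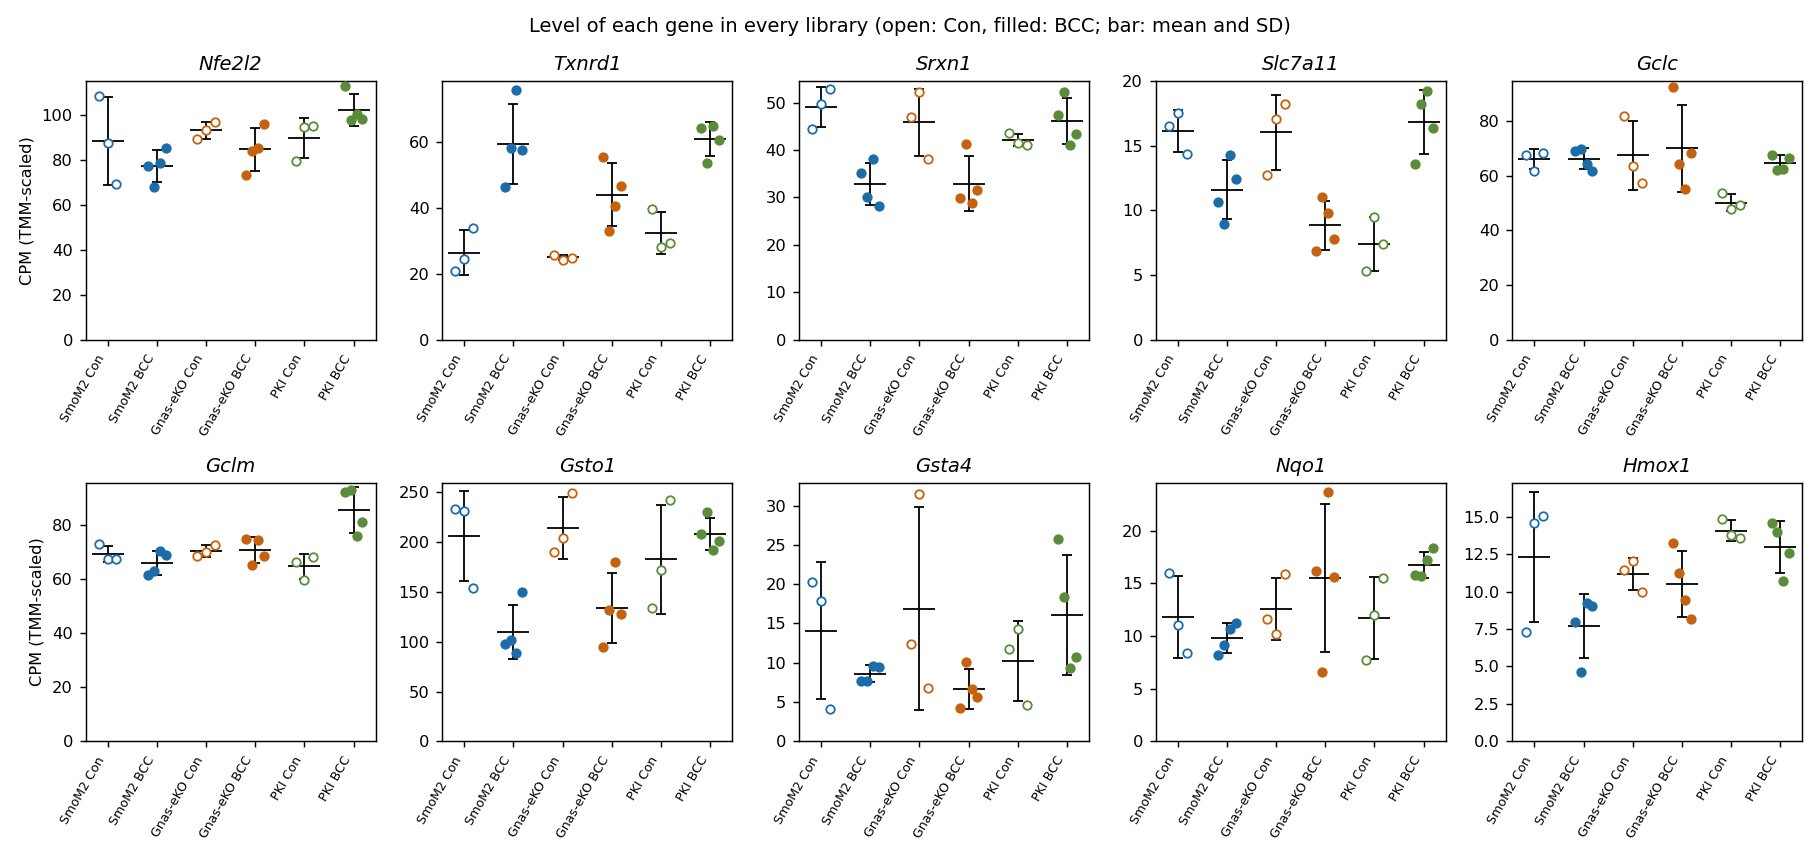
CPM of each of the 10 genes in every library, on axes that start at 0, with open points for Con and filled points for BCC, a bar at the group mean and its SD (n = 3 Con and 4 BCC). BCC and Con do not overlap for Slc7a11 in any model, with BCC higher in PKI only, and Txnrd1 is higher in BCC in each.

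The members whose libraries did not overlap numbered 6 in PKI, all with BCC above, where 43.2% of the genes tested did not overlap, 23.1% with BCC above and 20.1% below. In SmoM2 there were 1 above and 3 below, against 38.4% of genes, 20.5% above and 18% below, and in Gnas-eKO 1 above and 2 below, against 19.5%, 10.3% above and 9.16% below. The difference between the PKI and SmoM2 effects passed for 5 members, Gclc, Gclm, Srxn1, Slc7a11 and Gsto1, each with the higher effect in PKI, where 24.9% of genes passed, 12.6% with the higher effect in PKI and 12.3% with the lower. Over the 73 genes of the wider pathway described below, the same difference passed with the higher effect in PKI for 7 and with the lower for 16, of 72 tested. Without SmoM2 Con replicate 3 it passed for 8 members, beside 21.1% of all genes. Between PKI and Gnas-eKO it passed for Slc7a11 alone, against 9.06% of genes, 4.49% higher and 4.57% lower. It passed there for 2 members without Gnas-eKO Con replicate 3, Gnas-eKO BCC replicate 2 or PKI Con replicate 3, beside 6.69%, 12% and 4.41% of all genes, and for 3 without Gnas-eKO BCC replicate 3, beside 14.7%. Between Gnas-eKO and SmoM2 it passed for no member, against 0.175% of genes, 0.0758% higher and 0.0991% lower. By edgeR no member had an unadjusted p under 0.05 there, beside 8.74% of all genes, and the DESeq2 Wald test also called 0, beside 1.24%. The comparisons with PKI share the PKI libraries.

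The wider pathway, 73 genes in 5 lists, went in both directions. In SmoM2, 18 of 71 tested were called higher and 14 lower, beside 16.2% and 13.5% of all genes. In PKI, 7 of 70 were called higher and 16 lower, beside 18.7% and 15.8%. In Gnas-eKO, 1 of 71 was called higher and 1 lower, beside 1.46% and 0.165%. These shares of all genes are the reference for each list below as well. The median log2 fold change of those tested was 0.039, −0.12 and −0.083 in SmoM2, PKI and Gnas-eKO. With every library used, the Gnas-eKO counts became 3 higher and 6 lower with the DESeq2 Wald test, beside 6.78% and 2.57% of all genes, and 6 and 9 in the joint fit of all 21 libraries, beside 8.89% and 6.05%. They became 0 and 0 with the replicate block or with sex as a covariate, where 0.823% and 0.646% of all genes were called in either direction. The 7 higher in PKI became 11 with the DESeq2 Wald test, beside 19.9% of all genes. With 1 library left out, the 7 higher in PKI became 4 without Con replicate 1 or 2 or BCC replicate 2, 3 without Con replicate 3 and 11 without BCC replicate 3. The shares of all genes called higher in these 5 fits were 15.5%, 13.2%, 15.2%, 13.9% and 18%. The 14 lower in SmoM2 became 9 without BCC replicate 1 or BCC replicate 4, beside 10.5% and 10.7% of all genes. The 2 Gnas-eKO calls, of Idh1 and Ugt1a6a, were both lost in each leave-one-out fit but that without BCC replicate 2, in which 6 genes were called higher and 7 lower, beside 7.36% and 4.43% of all genes.

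Of 13 Nrf2 regulators, SmoM2 had 2 called higher and 2 lower, PKI 0 higher and 2 lower and Gnas-eKO 0 either way. Mafk, a small Maf partner of Nrf2, rose in SmoM2 by 0.40 (SE 0.084, edgeR adjusted p 0.00574), a call lost in the joint fit of all 21 libraries (0.39, adjusted p 0.0562, range 0.000444 to 0.0562 across the settings that used every library). Sqstm1, the autophagy receptor p62 that binds Keap1, rose there by 0.29. Keap1 fell by 0.24 in SmoM2 (edgeR adjusted p 0.0357), with means of 92.1 CPM (SD 7.48, n = 3) in Con and 78.3 CPM (SD 3.32, n = 4) in BCC, and Cul3 fell by 0.31. In PKI, Btrc, an alternative ubiquitin ligase adaptor for Nrf2, fell by 0.45 and Gsk3b, the kinase that marks Nrf2 for it, fell by 0.27. Of these calls, those of Keap1, Cul3 and Sqstm1 were lost in 6, 5 and 5 of the 7 fits that each left out 1 SmoM2 library, and those of Btrc and Gsk3b in 3 and 6 of the 7 PKI fits. With every library used, those of Keap1, Sqstm1 and Gsk3b were lost in the joint fit (edgeR adjusted p 0.0846, 0.0932 and 0.233). That of Keap1 was also lost with the replicate block (edgeR adjusted p 0.0614) and that of Gsk3b without a filter on low counts (0.0524).

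Of 26 genes of glutathione synthesis and use, SmoM2 had 5 called higher and 4 lower, and PKI 1 higher and 6 lower. Gsta2, an alpha-class glutathione transferase, fell in both, by 2.36 in SmoM2 (SE 0.38, edgeR adjusted p 0.00269) and by 2.37 in PKI (SE 0.24, edgeR adjusted p 0.000249). In PKI its mean was 13.9 CPM (SD 2.27, n = 3) in Con and 2.68 CPM (SD 0.795, n = 4) in BCC. Gsta1 fell by 2.00 in SmoM2 and Gsta3 by 1.84 in PKI. Alpha-class transferases are close copies of each other, so their counts are uncertain. Ggct, which cleaves gamma-glutamyl dipeptides, fell by 1.51 in SmoM2, and Gstm1 rose there by 0.71. Gstt3 and Mgst1 fell by 1.30 and 0.95 in PKI, the call of Mgst1 being lost in 6 of the 7 leave-one-out fits.

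Of 14 thioredoxin and peroxide enzymes, 4 were called higher and 4 lower in SmoM2, 3 higher and 5 lower in PKI, and 0 in Gnas-eKO. Prdx4, the peroxiredoxin of the endoplasmic reticulum, rose in both, by 0.62 in SmoM2 (edgeR adjusted p 0.00229) and 0.84 in PKI (edgeR adjusted p 0.00106). Txnip, which binds and inhibits thioredoxin, rose by 0.73 in SmoM2 (edgeR adjusted p 0.0259) and fell by 0.91 in PKI (edgeR adjusted p 0.000458). Sod3, the extracellular superoxide dismutase, fell by 3.21 in PKI, from a low mean of 2.96 CPM in Con to 0.318 CPM in BCC. On the authors' normalized values with a pseudocount of 1, it fell by 1.60. Cat, catalase, fell in PKI by 0.69. Prdx5 fell by 0.58 in SmoM2. Sod3 also fell in SmoM2, by 1.67 (edgeR adjusted p 0.0498). That call was lost in 6 of the 7 leave-one-out fits and in 5 of the 7 settings that used every library. On the authors' normalized values the log2 fold change of Sod3 in SmoM2 was −0.87. The call of Txnip in SmoM2 was lost in 3 of the 7 leave-one-out fits and in 2 of the 7 settings.

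Of 6 NADPH-supplying enzymes, 2 were called higher and 1 lower in SmoM2, 1 higher in Gnas-eKO and 2 higher in PKI. Idh1, the cytosolic isocitrate dehydrogenase, was called higher in all 3 models, by 1.30 in SmoM2 (SE 0.13, edgeR adjusted p 0.000111), 1.00 in Gnas-eKO (SE 0.18, adjusted p 0.0372) and 0.60 in PKI (SE 0.20, adjusted p 0.0476). Its calls were lost in 6 of 7 fits that left out 1 Gnas-eKO library and in 5 of 7 for PKI. Me1, malic enzyme, rose by 0.75 in SmoM2. G6pdx, the first enzyme of the pentose phosphate pathway, fell by 0.33 in SmoM2 and rose by 0.34 in PKI, the latter call being lost in 2 of 7 such fits.

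Of 14 other Nrf2 target genes, 5 were called higher and 3 lower in SmoM2, 1 lower in Gnas-eKO, and 1 higher and 3 lower in PKI. The ferritin subunits Ftl1 and Fth1, which store iron, rose by 1.03 and 0.78 in SmoM2, where Ftl1 had means of 110 CPM (SD 3.63, n = 3) in Con and 224 CPM (SD 17, n = 4) in BCC. Aldh3a1, an aldehyde dehydrogenase, rose by 1.11 in SmoM2 (edgeR adjusted p 0.000481) and fell by 0.90 in PKI (edgeR adjusted p 0.00582). Akr1b8, an aldo-keto reductase, rose by 1.23 in PKI, with means of 15.9 CPM (SD 1.31, n = 3) in Con and 37.2 CPM (SD 7.93, n = 4) in BCC. Ces2g, a carboxylesterase, fell by 1.96 in SmoM2, Blvrb and Slc48a1 fell by 0.69 and 0.56 in PKI, and Ugt1a6a fell by 1.14 in Gnas-eKO, a call lost in 6 of 7 leave-one-out fits. Of the 70 pathway genes tested in both SmoM2 and PKI, 2 (2.86%) were called higher and 5 (7.14%) lower in both, and 6 (8.57%) were called in opposite directions. Of all 15772 genes tested in both, the shares were 5.48%, 5.22% and 2.3%. The 6, chosen by these calls, were Aldh3a1, Txnip, Cat, G6pdx, Gstm5 and Sod1, of which Gstm5 and Sod1 were named only after their values were seen.

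**Figure D4:**
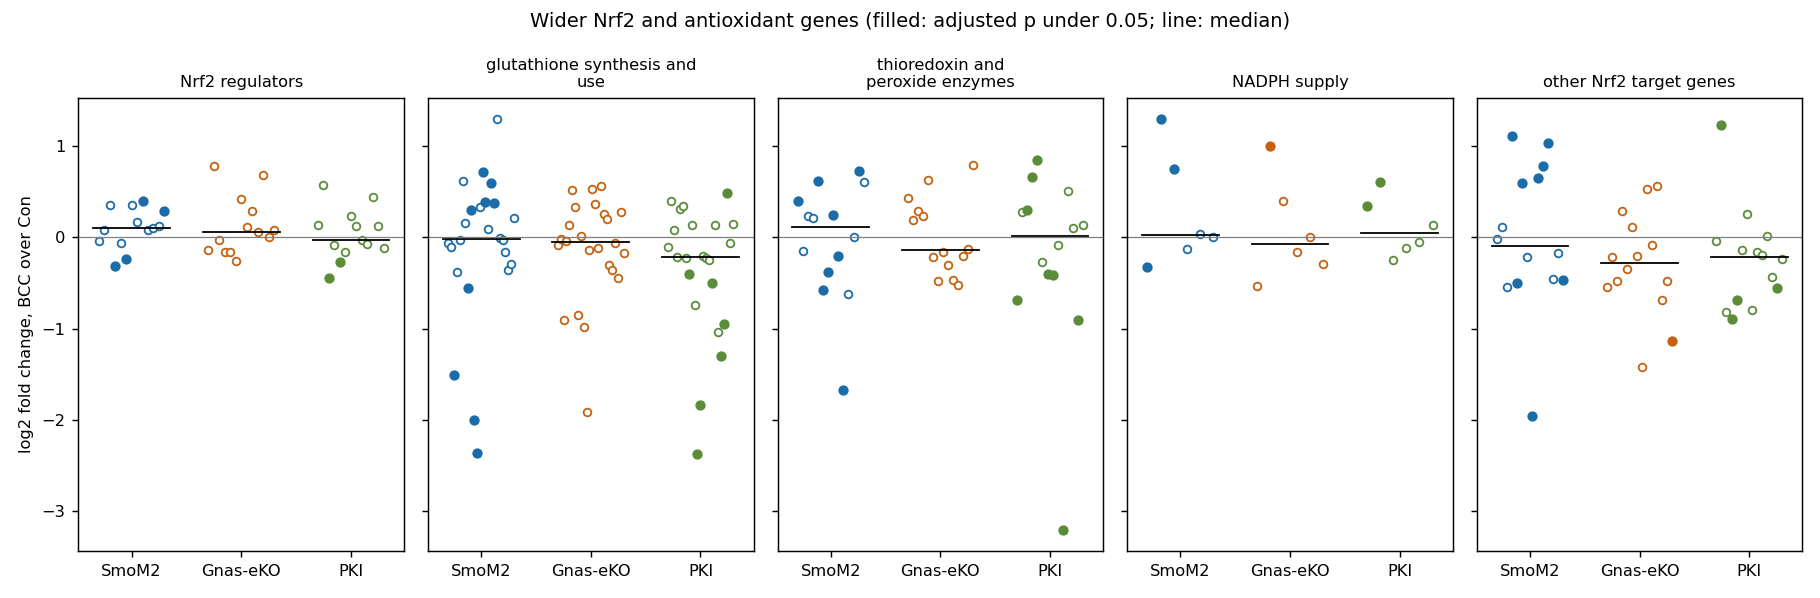
Log2 fold change, BCC over Con, of the tested genes in 5 lists of Nrf2 regulators and antioxidant genes, for each model. Filled points have an adjusted p under 0.05 and lines mark medians. In SmoM2 and PKI called genes lie on both sides of 0 in each list except the PKI regulators, which were called lower only, and the PKI NADPH enzymes, which were called higher only.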

How the data were processed

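Counts per gene were deposited by the authors as estimated counts without normalization. Per the submitters' processing notes, bcl2fastq 2.20, cutadapt 1.18, STAR 2.7.0f and Partek were used with build mm10, and per the labels' protocols the libraries were stranded mRNA ligation preparations. Strand use in counting is not given in the sources used here. Each file header names its own animal per library. The authors' normalized signal, deposited as TMM-normalized counts, served only as an alternative. Rounded counts went into edgeR 4.0.16 under R 4.3.3 (filterByExpr, TMM, robust glmQLFit and glmQLFTest, Benjamini-Hochberg over all genes tested), 7 libraries per model, and 14 for a difference between models. SE is the absolute log2 fold change over the square root of F. CPM used TMM-scaled totals within a model, and over all 21 libraries for the control order. The procedure was tested on simulated data. Alternatives used limma 3.58.1 (log2 of value plus 1) and DESeq2 1.42.0. The members, gene lists and tests were chosen with earlier results of these data known. Named list genes are the called ones with the largest change, up to 4 for each list in a model. Members all passed the filter on low counts.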

Additional observations from a re-analysis of the deposited data

Results flagged for a closer look

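Nfe2l2 in PKI BCC replicate 1, at 113 CPM, stood apart from the other 3 tumour libraries, at 98.2 to 101 CPM, with a gap of 0.836 of the group's range. This was 1 of 30 groups of 4 libraries examined, and chance gives about 1 in 20.

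The BCC effect differed by test between PKI and SmoM2 for Gclc (0.36 on the log2 scale), Gclm (0.47), Srxn1 (0.70), Slc7a11 (1.67) and Gsto1 (1.10), and between PKI and Gnas-eKO for Slc7a11 (2.05). Each difference has the higher effect in PKI. For Slc7a11 the PKI Con libraries, at 5.28 to 9.51 CPM, were also below those of SmoM2 Con, at 14.3 to 17.5 CPM, and Gnas-eKO Con, at 12.8 to 18.3 CPM. Model, batch and day cannot be told apart here.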

How the results depend on the processing

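Of 218 refits of the 13 called member results, 206 kept direction and call, 12 lost the call and 0 changed direction. In Gnas-eKO, where no member passed, the DESeq2 Wald test called 1 member higher and 2 lower (1535 genes in all, 9.35%), and the joint fit of 21 libraries 1 higher and 3 lower (2644 genes, 14.9%), against 267 genes (1.63%) in the 7 libraries of the model. Adding the replicate block left 135 called genes there, and adding sex, an alternative chosen after seeing the data, left 106. Without a filter 1 member was called lower in SmoM2, beside 8.82% of genes. Between PKI and Gnas-eKO, where 1564 genes (9.06%) passed, 5 members passed with DESeq2 (2389 genes, 13.8%), 3 in the joint fit (2316, 13.1%) and 2 with the replicate block (925, 5.36%). Leaving out 1 library gave 1 to 5 members lower in SmoM2 (9.24% to 12.8% of genes), 0 to 1 higher and 0 to 2 lower in Gnas-eKO (0 to 1910 genes either way), 4 to 8 members differing between PKI and SmoM2 (19.2% to 25.8%) and 1 to 3 between PKI and Gnas-eKO (3.79% to 14.7%). In PKI, leaving out 1 library gave 3 to 6 members higher, beside 13.2% to 18.4% of genes. The cause was not tested. Of 518 refits of the 37 list gene results, 79 lost the call and 0 changed direction.

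The changes of direction were all among results that did not pass. Gclc in SmoM2 went to −0.0018 with DESeq2's size factors, −0.0020 with its Wald test, −0.010 in the joint fit and −0.016 with sex as a covariate. Gclm in Gnas-eKO went to −0.0023 without a filter, −0.0014 in the joint fit and −0.0043 on the authors' values, and Hmox1 there to 0.0091 with the replicate block. With 1 library left out, the ranges that crossed 0 were −0.47 to 0.012 for Nqo1 and −0.042 to 0.041 for Gclc in SmoM2, and −0.10 to 0.21 for Gclc, −0.015 to 0.048 for Gclm and −0.21 to 0.020 for Hmox1 in Gnas-eKO. Between PKI and Gnas-eKO they were −0.14 to 0.091 for Hmox1, −0.037 to 0.49 for Nqo1 and −0.023 to 0.27 for Txnrd1. Between Gnas-eKO and SmoM2 they were −0.12 to 0.21 for Nfe2l2, −0.99 to 0.20 for Gsta4, −0.11 to 0.21 for Gclc and −0.033 to 0.21 for Srxn1.

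Deviations of same-numbered libraries correlated at −0.11 to −0.076 in SmoM2, 0.021 to 0.15 in Gnas-eKO and −0.054 to 0.24 in PKI. Libraries of unlike number were not compared in this way, so whether the numbers pair the samples cannot be told. With the block, Gsta4 passed in PKI (0.83, edgeR adjusted p 0.0074), as did its difference between PKI and Gnas-eKO (1.93, adjusted p 0.0444), and the difference of Gclc between PKI and SmoM2 did not (0.31, adjusted p 0.078). These p-values lie within ranges over the alternatives that kept all libraries of 0.00739 to 0.489, 0.0395 to 0.184 and 0.00569 to 0.201. Each member had at least 75 counts in every library, and groups held 3 or 4 libraries. How much depth limits the precision was not tested.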
